A study of Mus musculus with 6 samples.

Results

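The genes described here are 9 members of the SOX family of transcription factors, Sox4, Sox5, Sox6, Sox7, Sox11, Sox12, Sox13, Sox17 and Sox18, out of 20 SOX genes and 18193 genes measured in all. They were measured in mouse bone marrow cells sorted as Flt3-negative, lineage-negative, Sca1-positive and cKit-positive, a fraction enriched for stem and progenitor cells, on 6 single-colour 3' expression arrays. What all mice shared was a C57BL/6 background, homozygous floxed alleles of Raptor at exon 6, and treatment with polyinosinic-polycytidylic acid (pIpC), which raises interferon and was injected 3 times within 5 days at 15 µg per g of body weight. Cells were taken 5 weeks later. Mice of the Raptor mutant (KO) group (3 arrays) also carried MxCre, a Cre transgene under the interferon-inducible Mx promoter, which is active in many tissues besides blood-forming cells, while mice of the Raptor Wildtype group (3 arrays) lacked it. Neither age nor the number of mice behind an array is in the labels, so p-values reflect the variation among arrays, some of which may be technical. Raptor is the defining subunit of the growth-regulating kinase complex mTORC1.

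SOX proteins bind DNA through an HMG box, a domain that fits into the minor groove and bends the helix, and they are grouped by the likeness of that box. SoxC proteins (Sox4, Sox11, Sox12) activate transcription through a domain at their C-terminal end, and Sox4 is known for its role in early B and T lymphocytes. SoxD proteins (Sox5, Sox6, Sox13) pair through a coiled coil and act with partner factors as activators or repressors, and Sox6 is known in red cell maturation, where it acts with Bcl11a on embryonic globin genes. SoxF proteins (Sox7, Sox17, Sox18) work in blood vessels and in the emergence of blood from endothelium, and Sox17 is required by fetal blood stem cells.

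The members were measured by 34 probe sets that name a single gene. Each gene is represented by its brightest probe set by mean signal over the 6 arrays, so that mean chose it, and the others are given beside it. The family itself was picked after Sox6 was known to be among the genes called in these data, so its test is given as a value of the fit and supports nothing further. Signals are log2 values of the RMA intensities (RMA corrects background, normalizes across arrays and summarises probes into probe sets), group means carry the standard deviation (SD, n = 3 per group), and log2 fold changes (mutant minus wild type) the standard error (SE) from limma. Adjusted p-values come from limma with Benjamini-Hochberg adjustment over all 18193 genes, or over all 34945 single-gene probe sets where a dimmer probe set is described, and a gene is called at an adjusted p under 0.05. No detection calls were used here. The lower quartile of all signals on an array lay between 5.15 and 5.37, and values near or below it are referred to as dim.

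Array medians lay between 6.85 and 6.94. The Y-linked gene Kdm5d had a signal of 10.55 on wild type array 2, of 9.53 on wild type array 3 and of 3.60 to 3.88 elsewhere, so the 4 arrays without Y-linked signal were the mutants and wild type array 1. The X-linked gene Xist stood at 13.37 to 13.46 on these 4 arrays. It stood at 8.05 on wild type array 2 and at 5.69 on wild type array 3. Y-linked signal was thus unequal between the groups. For named genes and list medians whose sign turns against wild type array 1 alone, that value is given too. The median of all genes was -0.07 in the comparison of groups and 0.04 against wild type array 1, and values of either kind are read beside it. The brightest probe set of the targeted gene, Rptor, ranged from 7.59 to 8.57 in wild type and from 7.99 to 8.68 in mutant arrays. The position of its probes against exon 6 is unknown here, and it therefore gives no check of the deletion. Of 8 measured genes listed as stem and progenitor markers, Flt3 among them, Kit stood between 10.71 and 11.17 on all 6 arrays. Flt3, whose protein the sort selected against, stood between 9.51 and 10.79, with overlapping groups.

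Of the 9 members, Sox6 alone was called changed, and it was lower in mutant arrays. The share of all genes called in that direction was 0.0550%, and in either direction 0.110%. The other 8 members did not pass, with adjusted p-values from 0.46 to 0.75 and log2 fold changes from -0.37 to 0.45. At an unadjusted p under 0.05, 2 members (Sox6 and Sox18) were lower and 0 higher, where the shares of all genes were 4.24% and 5.81%. Groups did not overlap for 4 of 9 members, against 16.1% of all genes. These were Sox12 and Sox13, higher in mutant arrays (8.08% of all genes), and Sox6 and Sox18, lower (7.98%). The median log2 fold change of the 9 members was -0.20, and that of all genes was -0.07. Against wild type array 1 alone the members' median was 0.10, with 3 of 9 members on the other side of 0. Sox6 was known to be called when the family was picked, so its place in these counts was fixed in advance. Without Sox6, groups did not overlap for 3 of 8 members. Of these 8, 1 was lower and 0 higher at an unadjusted p under 0.05 in limma, and the median log2 fold change was -0.19. Against wild type array 1 alone the median of the 8 turned to 0.15, and 3 of the 8 were negative.

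**Figure D1:**
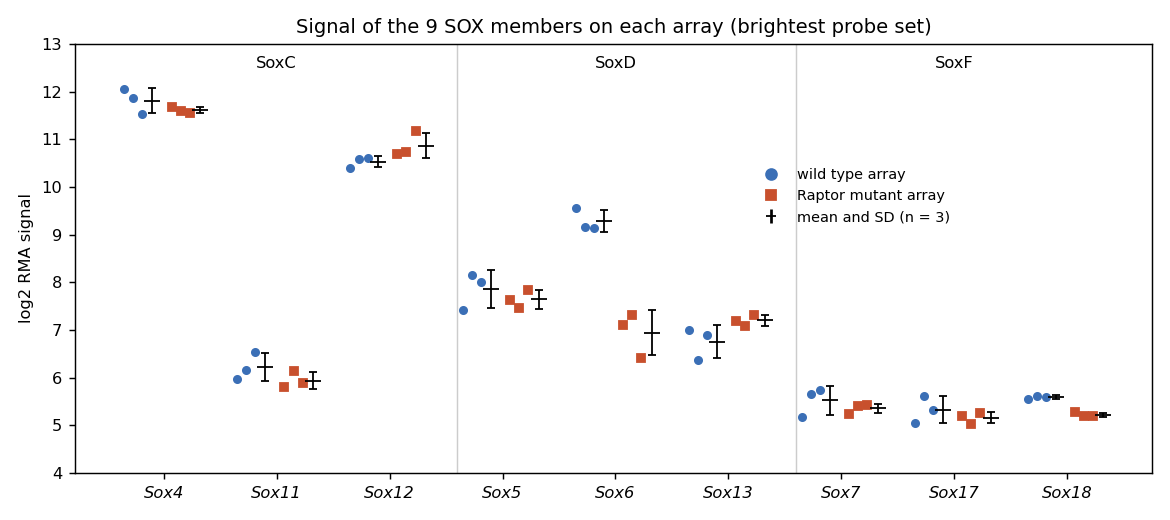
Log2 RMA signal (vertical axis) of the brightest probe set of each of the 9 members, with wild type arrays as circles, Raptor mutant arrays as squares, and the mean and SD of each group in black. The 3 mutant values of Sox6 lie between 6.41 and 7.32, below the wild type values of 9.14 to 9.55, and the distances of the other members are under 0.5 between group means.

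Sox6, which silences embryonic globin and supports red cell maturation in partnership with other factors, had signals of 9.55, 9.15 and 9.14 on wild type arrays 1, 2 and 3. On mutant arrays 1, 2 and 3 it stood at 7.11, 7.32 and 6.41. Every mutant array was thus more than 1 log2 unit below every wild type array, and mutant array 3 was the lowest. The group means were 9.28 ± 0.24 and 6.94 ± 0.48 (SD), a log2 fold change of -2.34 ± 0.26 (SE, limma adjusted p = 0.030), or a level 5.05-fold higher in wild type. Its 95% interval ran from -2.94 to -1.73, and by p it ranked 15 of 18193 genes. Against wild type array 1 alone, the other array without Y-linked signal, the difference was -2.61.

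The 3 dimmer Sox6 probe sets all had groups that did not overlap, in the same direction, as did 7.20% of all probe sets. The probe set 1434918_at stood at 8.35, 8.03 and 8.07 in wild type and at 5.40, 5.37 and 5.46 in mutant arrays. Its mutant values lay within 0.09 of one another and close to the arrays' lower quartile, so the size of this difference is not exact. The log2 fold change was -2.74 ± 0.16 (SE), with an adjusted p of 0.0058 over all probe sets in limma, where 0.0343% of probe sets were called. The probe set 1427677_a_at went from 8.46, 8.89 and 8.43 to 6.21, 6.80 and 5.57, a log2 fold change of -2.40 ± 0.32 (SE, adjusted p = 0.113 over all probe sets, limma). The dimmest, 1447655_x_at, stood at 6.13, 5.11 and 5.93 against 4.58, 4.65 and 4.60, and its log2 fold change of -1.11 ± 0.27 (SE) had an adjusted p of 0.295 over all probe sets in limma. In that fit the brightest probe set had an adjusted p of 0.068, so the gene's call there rests on 1434918_at.

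**Figure D2:**
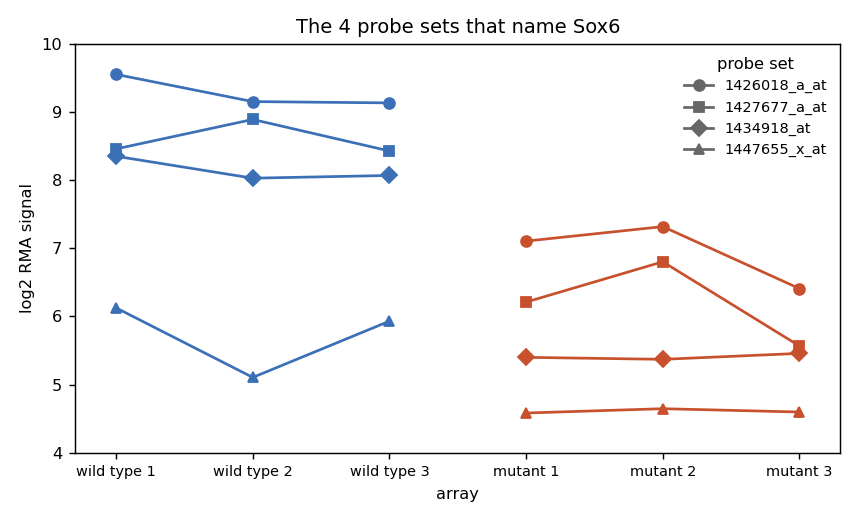
Log2 RMA signal (vertical axis) on each of the 6 arrays (horizontal axis) for the 4 probe sets that name Sox6, 1 marker shape each, wild type in blue and mutant in orange. In each probe set the mutant arrays lie below the wild type arrays, with log2 fold changes from -2.74 to -1.11.

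The call of Sox6 was close to the threshold. Leaving out a wild type array gave adjusted p-values in limma of 0.075 (array 1), 0.080 (array 2) and 0.116 (array 3), and leaving out a mutant array gave 0.107 (array 1), 0.046 (array 2) and 0.053 (array 3), with log2 fold changes from -2.52 to -2.07. When Y-linked signal was added to the fit as a covariate, the log2 fold change was -2.60 (adjusted p = 0.311, limma).

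Marker genes of some cell types also differed between the groups, lower in mutant arrays for some types and higher for others, while those of further types did not separate the groups. Of the 8 listed stem and progenitor genes, 7 had a negative log2 fold change (59.6% of all genes). These 7 include Flt3, whose protein the sort selected against. The mean log2 signal of the 8 ranged from 10.01 to 10.44 in wild type and from 9.79 to 9.86 in mutant arrays. Procr (the protein C receptor), Mecom and Hlf, all known in blood stem cells, were lower without overlap, with log2 fold changes of -0.86, -0.996 and -0.81, and none was called. Of all genes, 7.98% were lower and 8.08% higher without overlap, and the counts below are read beside these shares. All 8 endothelial markers had a negative log2 fold change, 2 of them without overlap (Pecam1 and Emcn), and the means of the 8 ranged from 7.10 to 7.42 in wild type and from 6.69 to 6.95 in mutant arrays. Against wild type array 1 alone Plvap, Cldn5 and Kdr turned to 0.33, 0.07 and 0.02. The mean signal of 3 of the 8 lay below the lower quartile of all genes. All 6 measured granulocyte markers were lower in mutant arrays without overlap, and their mean log2 signal ranged from 10.56 to 11.36 in wild type and from 7.72 to 9.02 in mutant arrays. Among them, 1 was called, Camp (-3.81, adjusted p = 0.030, limma). Of 6 mast cell and basophil markers, 5 were higher without overlap, with means of 7.00 to 7.70 in wild type and 9.61 to 10.05 in mutant arrays. Here 1 was called, Gzmb (4.21, adjusted p = 0.013, limma), where 0.110% of all genes were called in either direction. Of 6 macrophage markers, 4 were higher without overlap, with means of 6.19 to 6.52 and 7.00 to 7.61. None of 5 measured erythroid markers separated the groups, and their means ranged from 8.03 to 8.40 in wild type and from 8.16 to 8.60 in mutant arrays. Of 7 megakaryocyte markers, 2 were lower and 1 was higher without overlap, with means of 8.14 to 8.29 and 7.73 to 7.97. No marker of B cells (5 measured), T and NK cells (6) or stroma (7) separated the groups. The stromal mean was 7.58 on mutant array 1, however, and 6.40 to 6.68 on the other arrays. Its marker Col1a1 stood at 9.72 on mutant array 1 and at 6.32 to 6.76 on the others. The part of any of these cells in the Sox6 difference was not tested. In RNA from sorted bulk cells, fewer cells of a type and less RNA per cell cannot be told apart.

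Promoter windows from RefSeq (GRCm38.p6), each from 250 bases before to 50 bases after an annotated start, were found for 6 of the 9 members, and 6 of their 11 windows belong to Sox6, which has several starts on the minus strand of chromosome 7. They were searched on both strands for the core SOX motif AACAAT (reverse complement ATTGTT) and the GATA motif AGATAA (reverse complement TTATCT), which did not overlap one another. The SOX letters occurred in 1 of the 11 windows and in 10.7% of all 32851 windows of that length, and the GATA letters in 1 of 11 and in 11.2%. Both of those member windows belong to Sox6, and they are shown because Sox6 was the member called, with the matching letters in capitals. A match is a description of these letters and not a site of binding.
Sox6, GATA letters, GRCm38.p6 minus strand, chr7:115846091-115846390: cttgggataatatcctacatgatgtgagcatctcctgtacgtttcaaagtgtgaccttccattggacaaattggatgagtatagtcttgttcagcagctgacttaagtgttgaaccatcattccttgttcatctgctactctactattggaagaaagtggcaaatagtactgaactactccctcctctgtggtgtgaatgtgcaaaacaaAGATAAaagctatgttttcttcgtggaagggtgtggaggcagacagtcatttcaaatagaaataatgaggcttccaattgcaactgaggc
Sox6, SOX letters on either strand, GRCm38.p6 minus strand, chr7:115824661-115824960: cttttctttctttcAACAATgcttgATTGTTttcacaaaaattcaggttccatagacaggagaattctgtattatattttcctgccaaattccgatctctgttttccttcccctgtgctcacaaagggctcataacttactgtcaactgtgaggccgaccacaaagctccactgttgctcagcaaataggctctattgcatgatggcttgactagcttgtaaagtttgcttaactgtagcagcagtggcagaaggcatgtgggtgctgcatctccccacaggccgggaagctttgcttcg

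Which start the cells used, and which start each probe set reads, was not analysed here. The remaining 4 Sox6 windows, and the 5 windows of Sox4, Sox5, Sox11, Sox12 and Sox13, held neither set of letters.

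The genes whose values ran most like those of Sox6 over the 6 arrays were taken by the Euclidean distance between log2 profiles after each gene was centred on its own mean. The nearest was Mmrn1, a multimerin of platelets and endothelium, at a distance of 0.54, where the median over all genes was 2.95. Mmrn1 stood at 9.36, 9.21 and 9.56 in wild type and at 7.38, 7.21 and 6.65 in mutant arrays, so that mutant array 3 was the lowest for it as well. Clec1a, a C-type lectin receptor, followed at 0.72, Robo4, a guidance receptor of endothelium and blood stem cells, at 0.79, and Lipo3, of the lipase family, at 0.81. The fifth was Lcn2, the lipocalin of neutrophil granules and a granulocyte marker, at 1.01. Mmrn1, Clec1a and Lipo3 were called lower (adjusted p of 0.019, 0.013 and 0.0071, limma), and Robo4 and Lcn2 were not (0.136 and 0.131). This likeness is over 6 arrays in 2 groups, so any gene with a similar difference between the groups comes out near.

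**Figure D3:**
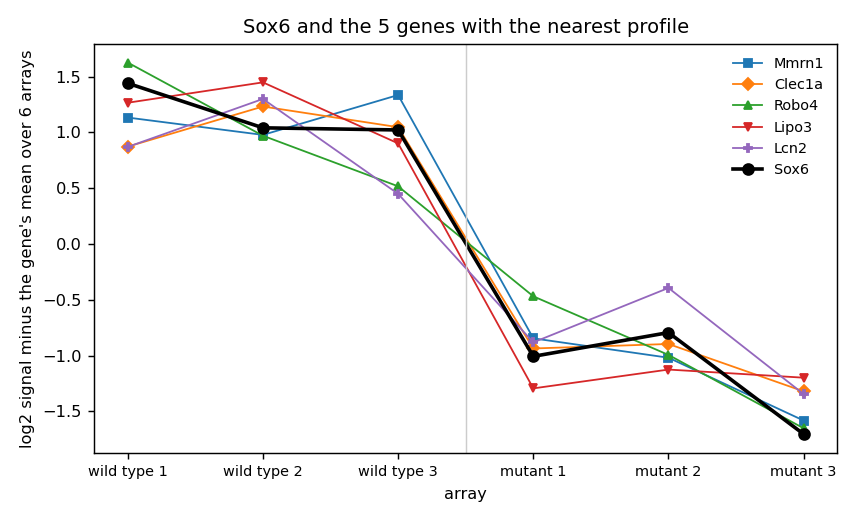
Log2 signal minus each gene's own mean over the 6 arrays (vertical axis) on each array (horizontal axis), for Sox6 in black and the 5 genes at the smallest distance from it. The distances run from 0.54 for Mmrn1 to 1.01 for Lcn2.

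The other SoxD members did not share the profile of Sox6. Sox5, a partner of Sox6 in cartilage formation, stood at 7.42, 8.16 and 8.01 in wild type and at 7.63, 7.46 and 7.84 in mutant arrays. The groups overlapped because wild type array 1 was the lowest of all 6. Its log2 fold change was -0.23 ± 0.23 (SE, adjusted p = 0.72, limma), with a 95% interval from -0.76 to 0.31, and against wild type array 1 alone the difference was 0.22, in the opposite direction. Of its 6 dimmer probe sets, 3 had a positive and 3 a negative difference, from -0.41 to 0.26. One of them, 1440827_x_at, had lower mutant values without overlap (4.25, 4.67 and 4.32 in wild type, 3.98, 4.12 and 4.14 in mutant arrays), at a dim level.

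Sox13, known in gamma delta T cells, was measured by 1 probe set, at 7.00, 6.37 and 6.89 in wild type and at 7.19, 7.09 and 7.32 in mutant arrays. All 3 mutant values were higher than all wild type values, and wild type array 2 was the lowest. The log2 fold change was 0.45 ± 0.20 (SE, adjusted p = 0.52, limma), with a 95% interval from -0.03 to 0.92, and against wild type array 1 it was 0.20. Sox6 and Sox13 lay 3.53 apart in profile distance and Sox6 and Sox5 2.89 apart, while no pair of members without Sox6 was more than 1.28 apart.

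Among the SoxC members, Sox4, the lymphocyte factor that also acts in many progenitors, had bright signals of 12.05, 11.86 and 11.53 in wild type and of 11.68, 11.60 and 11.55 in mutant arrays. The groups overlapped at wild type array 3, which was the lowest of the 6. The log2 fold change was -0.20 ± 0.18 (SE, adjusted p = 0.69, limma), with a 95% interval from -0.62 to 0.21. The 7 dimmer Sox4 probe sets did not run one way. The next brightest, 1449370_at, had values of 10.49, 11.24 and 10.14 against 10.09, 10.05 and 9.46, without overlap, and a log2 fold change of -0.76 ± 0.32 (SE, adjusted p = 0.52 over all probe sets, limma). The probe set 1419157_at had a difference of 0.53, with wild type values of 7.04, 6.48 and 8.92 that span the mutant values of 8.20, 8.21 and 7.61. The pair 1458332_x_at and 1443778_at stayed between 2.98 and 3.21 on every array, at the floor of the arrays.

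Sox12, a close relative of Sox4 with weaker activity, stood at 10.40, 10.58 and 10.61 in wild type and at 10.68, 10.74 and 11.17 in mutant arrays. The groups did not overlap, but mutant array 1 was only 0.07 above wild type array 3. Its log2 fold change was 0.33 ± 0.18 (SE, adjusted p = 0.58, limma), with a 95% interval from -0.09 to 0.76. Both dimmer probe sets also had a positive difference, of 0.33 and 1.23, with overlapping groups. The smaller difference, at 1439754_at, turned to -0.14 against wild type array 1 alone. The larger difference, at 1456882_at, went with a signal of 9.11 on mutant array 3 against 6.97 to 7.55 on the other mutant arrays.

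Sox11, a factor of developing neurons, stood at 5.97, 6.16 and 6.55 in wild type and at 5.79, 6.13 and 5.89 in mutant arrays, with overlapping groups. The log2 fold change was -0.29 ± 0.20 (SE, adjusted p = 0.64, limma), and against wild type array 1 alone it was -0.03. Its 5 dimmer probe sets lay between 3.33 and 5.13, below the lower quartile of each array.

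The SoxF members were dim on all arrays, with 5 probe sets between 3.70 and 5.74. Sox7, which acts where blood forms from endothelium, stood at 5.17, 5.65 and 5.74 in wild type and at 5.24, 5.40 and 5.43 in mutant arrays. Sox17, the fetal stem cell factor, stood at 5.06, 5.62 and 5.32 against 5.19, 5.03 and 5.26. In both genes wild type array 1 lay below the other wild type arrays, the groups overlapped, and the log2 fold changes of -0.17 ± 0.19 and -0.17 ± 0.19 (SE, adjusted p of 0.75 and 0.74, limma) turned to 0.19 and 0.10 against wild type array 1 alone. The dimmer probe sets of Sox7 and Sox17 had differences of -0.05 and -0.06.

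Sox18, a factor of blood and lymph vessel endothelium, was tight within each group. Its single probe set stood at 5.56, 5.62 and 5.60 in wild type and at 5.27, 5.20 and 5.19 in mutant arrays, without overlap. The log2 fold change was -0.37 ± 0.14 (SE), with a 95% interval from -0.70 to -0.04 and an unadjusted p of 0.032, but its adjusted p of 0.46 in limma did not pass. Against wild type array 1 alone the difference was -0.33. All mutant values lay at the arrays' lower quartile, where differences are compressed, so the size is not exact. Beside it, the 8 endothelial markers all had negative log2 fold changes, from -1.19 for Emcn and -0.51 for Pecam1, both without overlap, to -0.04 for Plvap, which turned to 0.33 against wild type array 1 alone. Of the defining ones, Cdh5 was dim, between 5.18 and 5.46 on all 6 arrays, and Kdr stood between 5.25 and 5.74, both with overlapping groups, and the difference in Kdr turned from -0.11 to 0.02 against wild type array 1 alone. The part of endothelial cells in the Sox18 difference was not tested.

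**Figure D4:**
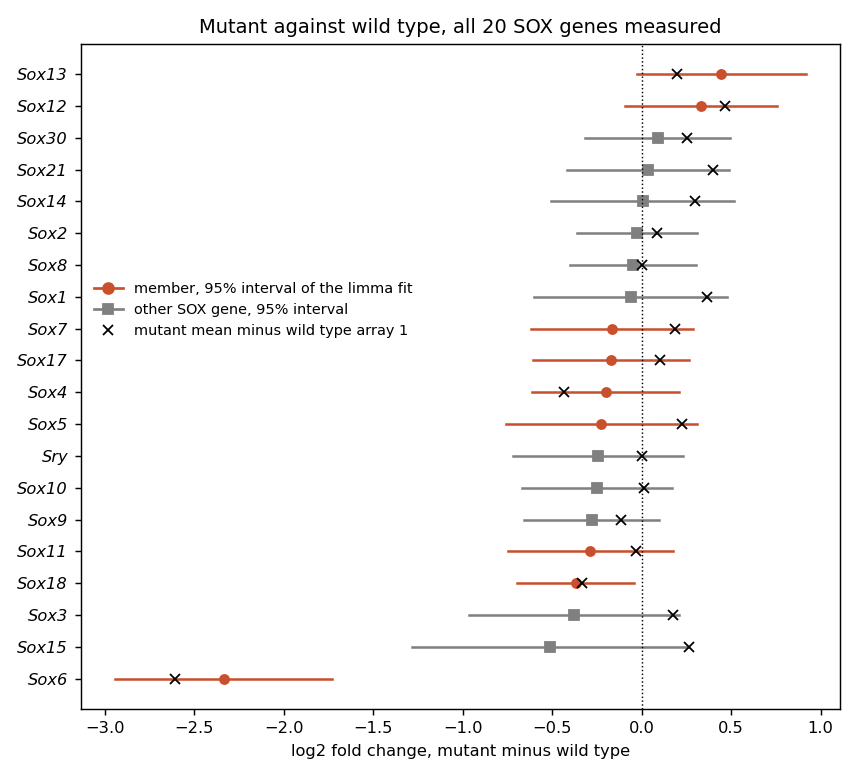
Log2 fold change, mutant minus wild type (horizontal axis), of all 20 SOX genes, members as orange circles and the others as grey squares with the 95% interval of the limma fit, and crosses for the mutant mean minus wild type array 1. Sox6 lies at -2.34, and the other 19 lie between -0.51 and 0.45, and for 10 of the 20 the cross lies on the other side of 0, among them the members Sox5, Sox7 and Sox17.

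The remaining 11 SOX genes had log2 fold changes from -0.51 to 0.09, with a median of -0.06, and 0 of them was called by limma, nor did any have an unadjusted p under 0.05. Against wild type array 1 alone 7 of the 11 turned from negative to positive, among them Sox15 (-0.51 to 0.26), and the median was 0.17. Sox9, a factor of cartilage and gut stem cells, was the only one of these whose groups did not overlap, at 6.44, 6.56 and 6.80 in wild type and 6.24, 6.34 and 6.38 in mutant arrays, a log2 fold change of -0.28 ± 0.16 (SE, adjusted p = 0.59, limma). Its 2 dimmer probe sets overlapped between the groups. Sox6 differed most among the 20 SOX genes in this comparison.

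Genes linked to the SOX groups by function were taken as lists, whose choice was made with earlier results of these data known, and are described by counts. Of 31 vessel and SoxF-linked genes, 2 were called lower, 0 higher and 29 did not pass, and 28 had a negative log2 fold change. The share of all genes called lower was 0.0550%, and 59.6% of all genes had a negative log2 fold change. Their median was -0.25, beside -0.07 for all genes. It was -0.38 without wild type array 1, -0.52 with the lower 50% of genes by signal left out (all genes 0.06), -0.04 with Y-linked signal as a covariate (all genes 0.04) and -0.05 against wild type array 1 alone (all genes 0.04), where 16 of the 31 were negative. The genes called were Mmrn1 and Tek, the receptor of angiopoietins, which stood at 10.23, 9.93 and 10.30 in wild type and at 8.57, 8.74 and 8.70 in mutant arrays (log2 fold change -1.48 ± 0.17, SE, adjusted p = 0.030, limma). Tek is also a receptor of blood stem cells. Robo4, Eng (a TGF-beta co-receptor), Emcn (endomucin) and Pecam1 (an adhesion molecule) had log2 fold changes of -2.08, -0.66, -1.19 and -0.51, without overlap and without a call, and Cdh5 had one of -0.13.

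Of 23 measured erythroid and globin genes, 0 were called by limma, 1 was higher and 2 lower at an unadjusted p under 0.05 (5.81% and 4.24% of all genes), and 2 were higher and 6 lower without overlap (8.08% and 7.98%). The median was -0.12, but 0.03 with Y-linked signal as a covariate, 0.05 against wild type array 1 alone, 0.04 with the lower 50% of genes left out and -0.01 without wild type array 3. Bcl11a, the partner of Sox6 at embryonic globin genes, stood at 11.10, 11.24 and 11.09 in wild type and at 11.24, 11.21 and 11.46 in mutant arrays, a log2 fold change of 0.16 ± 0.15 (SE, adjusted p = 0.71, limma). Hbb-y, an embryonic globin gene that Sox6 represses in red cells, was dim, at 5.18, 5.88 and 5.58 against 5.25, 4.90 and 5.20, with overlapping groups. Hbb-bh1, another embryonic globin gene, had a log2 fold change of -0.12 ± 0.16 (SE), which turned to 0.05 against wild type array 1 alone, and Gata1, the master factor of red cells, one of 0.28 ± 0.46 (SE). The smallest p-values were those of Hbb-b2, an adult globin gene whose reading may be shared with its near copy (-1.28 ± 0.38, SE, adjusted p = 0.31, limma), the corepressor gene Ctbp2 (0.59), Nfe2 (-0.38), a factor of red cells and platelets, and the LIM cofactor Ldb1 (0.33).

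Of 23 measured lymphoid genes, 0 were called by limma, 2 were higher and 0 lower at an unadjusted p under 0.05 (5.81% and 4.24% of all genes), and 2 were higher and 0 lower without overlap (8.08% and 7.98%). The median was -0.19, but -0.02 with Y-linked signal as a covariate, -0.03 against wild type array 1 alone and -0.04 without wild type array 2. Ikzf3, a zinc finger factor of lymphocytes, stood at 5.52, 4.89 and 4.72 in wild type and at 7.30, 5.73 and 7.31 in mutant arrays. Maf, a factor of T cells and macrophages, stood at 6.64, 8.36 and 6.50 against 9.40, 8.39 and 8.97. Both were higher without overlap, although mutant array 2 was only 0.03 above wild type array 2 for Maf, and their log2 fold changes were 1.74 ± 0.44 and 1.75 ± 0.50 (SE, adjusted p of 0.24 and 0.30, limma). Cd79b, of the B cell receptor, had one of -0.62, and Dntt, the terminal transferase of early lymphocytes, one of -0.99 ± 0.70.

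Of 19 other measured HMG-box genes, which share the DNA-binding fold of SOX proteins, 0 were called by limma, 1 was higher and 0 lower at an unadjusted p under 0.05 (5.81% and 4.24% of all genes), and 1 was higher and 1 lower without overlap (8.08% and 7.98%). The median was 0.08, or 0.0048 against wild type array 1 alone. Cic, the repressor Capicua, stood at 8.50, 8.78 and 8.17 in wild type and at 9.31, 9.38 and 9.09 in mutant arrays, without overlap (log2 fold change 0.78 ± 0.20, SE, adjusted p = 0.24, limma). Tox, Tcf7l1 and Hmgb3 had log2 fold changes of 0.50, -0.66 and -0.31, of which that of Tcf7l1 turned to 0.06 against wild type array 1 alone, and Lef1, a Wnt factor, had one of 0.20 ± 0.23. Of 30 Wnt and beta-catenin genes, a pathway in which SOX proteins and TCF factors meet, 0 were called, 6 were higher and 1 lower at an unadjusted p under 0.05, and 7 were higher without overlap. The corresponding shares of all genes were 5.81% (unadjusted p, higher), 4.24% (unadjusted p, lower) and 8.08% (no overlap, higher). The Wnt receptor gene Fzd7 stood at 8.98, 8.03 and 8.78 in wild type and at 9.89, 9.53 and 10.04 in mutant arrays (log2 fold change 1.22 ± 0.27, SE, adjusted p = 0.19, limma). Ccnd1, Axin1 and Lrp5 had log2 fold changes of -0.95, 0.51 and 0.41, and Ctnnb1, the gene of beta-catenin itself, one of -0.01 ± 0.15. The median of the Wnt list was 0.00054, and 0.13 against wild type array 1 alone.

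**Figure D5:**
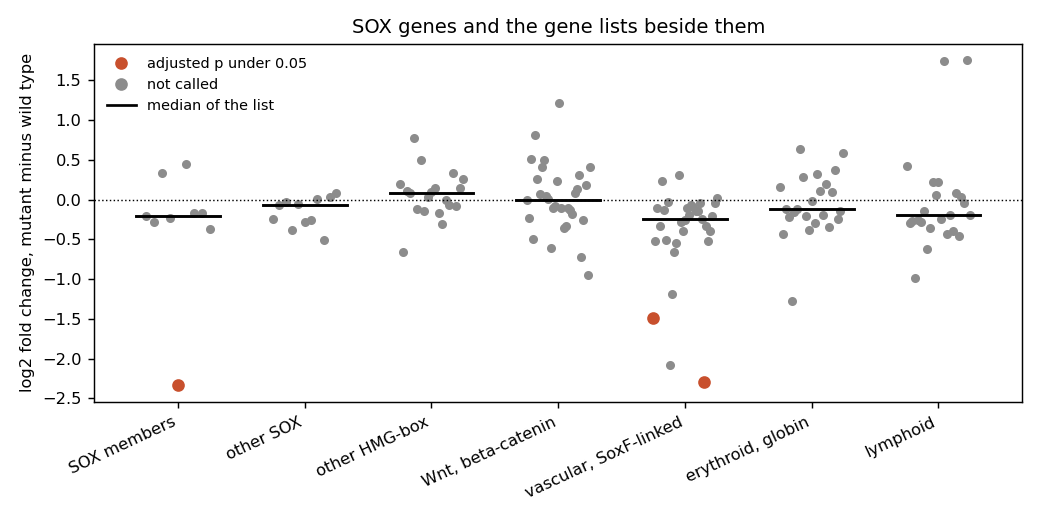
Log2 fold change, mutant minus wild type (vertical axis), of each measured gene in the 9 SOX members, the 11 other SOX genes and the lists of related genes, with genes called in orange, the others in grey and the median of each list as a bar. Sox6, Mmrn1 and Tek are the genes called, and the medians lie between -0.25 and 0.08.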

How the data were processed

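Per the labels' protocols, RNA was taken up with a PicoPure kit, amplified by whole-transcriptome amplification and labelled with biotin. The authors deposited RMA intensity values, 1 for each probe set on each array, as the submitters' processing notes say, with its version and settings not given in the sources used here. These intensity values run from 7.60 to 33796 and are therefore linear, so log2 was taken before every test. Array data carry no read depth, and precision is limited by the number of arrays. Controls (64 of 45101 probe sets) and those without a gene name (9160) or with several (932) were removed. The 34945 others gave 18193 genes, each by its brightest probe set, and 34741 matched the GRCm38.p6 gene table by Entrez identifier, with 0 symbols changed. The test was limma 3.58.1 (R 4.3.3; lmFit, then eBayes), mutant minus wild type, two-sided, with no covariate and no filter on dim genes. It was tested on simulated data, where it called 34 of 75 genes changed 2-fold, 65 of 75 changed 4-fold and 45 of 50 changed 8-fold. There were 8 false calls. Changes smaller than 2-fold were not simulated. At most 99 probe sets had identical values on any pair of arrays.

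Members, lists, tests and alternatives were chosen with earlier results of these data known. All 9 members are named, and of the other SOX genes those that were called or whose groups did not overlap. Of each list, the genes called, up to 4 with the smallest p and a few fixed partners are named, besides the 5 genes nearest to Sox6. No other member spanned at least 1 log2 unit, so none has such neighbours. Listed genes that no single-gene probe set names were not analysed here.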

Additional observations from a re-analysis of the deposited data

How the results depend on the processing

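In all 19 alternatives Sox6 kept its direction, with log2 fold changes from -2.61 to -2.07, and it passed in 8 of them. Limma called 1 SOX member in the fit reported and 0 with the replicate number as a block, array weights, log2 of the value plus 16, Y-linked signal as a covariate, or the 4 arrays without Y-linked signal (Sox6 adjusted p of 0.067, 0.098, 0.064, 0.311 and 0.267), and 0 to 1 when each array was left out in turn. Over all genes 20 were called, against 10 with the replicate block, 40 with trend and robust fitting, 8 with array weights, 11 with log2 of the value plus 16, 12 with all probe sets tested singly, and 0 with the Y-linked covariate (1149 at an unadjusted p under 0.05) or without the arrays that carry the signal (1729). Leaving out each array gave 5 to 31, the extremes being 31 without array 1 of the wild type and 5 without array 3 of the wild type, while the mutant group gave 10 without array 1 and 9 without array 3. For same-numbered arrays 1, 2 and 3, deviations from the group means correlated over probe sets at 0.18, -0.05 and 0.06. Between differently numbered arrays these correlations ran from -0.14 to 0.09. These few values do not decide whether same-numbered arrays were paired. With the Y-linked covariate and among the arrays without Y-linked signal, in that order, directions reversed for Sox5 (0.20 and 0.22), Sox7 (0.16 and 0.19) and Sox17 (0.10 and 0.10), none of them called. In the same pair of alternatives the median of the 11 other SOX genes turned from -0.06 to 0.14 and 0.17, and that of the erythroid and globin list from -0.12 to 0.03 and 0.05, while the median of all genes went from -0.07 to 0.04 in both. The other 5 members kept their direction in every alternative that measured them. With the lower 25% of genes left out 6 members stayed in the test, and with the lower 50% 4. The cause of these changes was not tested.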

Other observations

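A probe set naming Sry, the Y-linked founding gene of the family, was noticed after its values were seen. Its signal was 8.55 on wild type array 2 and 8.90 on wild type array 3, which carry Y-linked signal, and 8.35 on wild type array 1 and 8.09, 8.44 and 8.53 on the mutant arrays, which do not. The lowest and highest arrays of this probe set were thus 0.80 apart, whereas Kdm5d ranged from 3.60 to 10.55. The other Sry probe set ranged from 5.12 to 5.95 over the 6 arrays.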
